A study of Mus musculus with 9 samples.

Results

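The genes described here are 135 mouse genes whose symbols begin with Rab, Tbc1d, Vps or Sec followed by a number, out of 10193 genes that had a promoter window in the deposited table. They were taken by name: 54 Rab, 26 Tbc1d, 32 Vps and 23 Sec genes, each with 1 window. RefSeq lists 173 genes with such symbols, 163 of them protein-coding, and 133 of the protein-coding ones had a window. The other 30, among them Rab23, Rab37, Rab6b, Tbc1d14, Vps11 and Sec16b, were not analysed here.

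Chromatin accessibility had been measured by ATAC-seq, in which the transposase Tn5 cuts and tags open DNA, on 100000 cells per library of HPC7, a mouse blood progenitor cell line dependent on stem cell factor. The groups used were cells transduced with the MIG retroviral vector for wildtype Snai1, FLAG-tagged per the series' design (3 libraries, called Snai1), and cells transduced with the empty MIG vector (3 libraries, called EV). Another 3 libraries carried a mutant, mut5Snai1, and were not analysed here. Whether a group's libraries stem from independent transductions, and whether transduced cells were sorted or cloned, the labels do not state. The p-values thus cover the spread among these libraries alone, which may be technical. The table held 1 value per group, the authors' log2 concentration (DiffBind's log2 read density of a window), and no value per library, so no SD can be given. Every level, change and FDR below comes from the authors' deposited table; a change is Snai1 minus EV in log2, and a gene is called where the authors' FDR was under 0.05. The implied standard error (SE) beside a change was worked back from that change and its p-value. Read depth per library was not given in the sources used here. Of 11 blood progenitor marker genes, 10 had a window, with medians of 10.80 in Snai1 and 10.62 in EV, against 1 of 8 fibroblast, 0 of 6 lymphocyte and 0 of 4 epithelial marker genes. Accessibility of a promoter is not expression of its gene.

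Rab proteins are small GTPases that sit on the membranes of particular organelles and, when bound to GTP, recruit the motors, tethers and other effectors that move and dock vesicles. Exchange factors switch them on, and GTPase-activating proteins, most of which carry a TBC domain as the Tbc1d proteins do, switch them off. The Vps genes take their name from yeast vacuolar protein sorting and encode complexes of the endosome and lysosome: retromer, the HOPS and CORVET tethers, ESCRT and GARP. The Sec genes take theirs from yeast secretion and encode the COPII coat that buds vesicles from the endoplasmic reticulum (ER) and the translocon that brings proteins into it. Snai1 is a zinc finger repressor that binds the letters CAGGTG.

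The following promoters belong to the 6 genes on which the results below turn most. They run from 250 bases before to 50 bases from the RefSeq transcript start (GRCm38.p6, the coordinates of mm10), 5′ to 3′ on the strand of the gene, in lower case, with CAGGTG or its reverse complement CACCTG in capitals. The first 3 genes were higher in Snai1 and the last 3 lower.
Sec24d, chr3:123267246-123267545, plus strand: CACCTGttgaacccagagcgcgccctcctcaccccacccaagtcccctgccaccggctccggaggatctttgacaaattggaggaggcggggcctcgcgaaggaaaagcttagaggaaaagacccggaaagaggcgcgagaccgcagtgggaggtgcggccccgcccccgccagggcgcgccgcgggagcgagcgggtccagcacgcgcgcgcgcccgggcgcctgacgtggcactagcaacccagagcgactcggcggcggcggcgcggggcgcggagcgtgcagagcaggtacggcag
Tbc1d9, chr8:83165102-83165401, plus strand: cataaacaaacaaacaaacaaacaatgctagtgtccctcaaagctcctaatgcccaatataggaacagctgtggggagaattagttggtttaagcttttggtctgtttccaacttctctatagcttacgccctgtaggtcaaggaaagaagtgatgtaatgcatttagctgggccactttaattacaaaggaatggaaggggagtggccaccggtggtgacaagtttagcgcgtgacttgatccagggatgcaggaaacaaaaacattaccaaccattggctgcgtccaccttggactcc
Vps16, chr2:130424070-130424369, plus strand: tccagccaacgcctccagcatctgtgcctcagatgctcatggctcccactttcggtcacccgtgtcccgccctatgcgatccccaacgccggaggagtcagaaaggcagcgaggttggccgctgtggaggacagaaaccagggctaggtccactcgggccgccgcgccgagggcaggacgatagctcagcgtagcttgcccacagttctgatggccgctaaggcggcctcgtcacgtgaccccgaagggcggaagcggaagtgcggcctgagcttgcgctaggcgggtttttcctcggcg
Rab32, chr10:10558158-10558457, minus strand: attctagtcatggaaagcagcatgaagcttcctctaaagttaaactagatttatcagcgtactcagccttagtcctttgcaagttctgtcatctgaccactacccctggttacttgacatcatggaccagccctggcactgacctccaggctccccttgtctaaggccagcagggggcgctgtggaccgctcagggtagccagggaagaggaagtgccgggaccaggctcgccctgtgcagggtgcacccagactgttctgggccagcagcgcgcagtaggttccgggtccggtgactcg
Rab22a, chr2:173659595-173659894, plus strand: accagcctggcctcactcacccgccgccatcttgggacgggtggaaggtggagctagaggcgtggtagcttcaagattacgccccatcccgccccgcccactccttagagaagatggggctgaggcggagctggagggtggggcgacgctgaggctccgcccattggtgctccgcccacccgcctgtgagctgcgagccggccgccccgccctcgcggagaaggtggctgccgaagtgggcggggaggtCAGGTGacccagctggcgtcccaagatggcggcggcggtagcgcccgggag
Rab3ip, chr10:116950404-116950703, minus strand: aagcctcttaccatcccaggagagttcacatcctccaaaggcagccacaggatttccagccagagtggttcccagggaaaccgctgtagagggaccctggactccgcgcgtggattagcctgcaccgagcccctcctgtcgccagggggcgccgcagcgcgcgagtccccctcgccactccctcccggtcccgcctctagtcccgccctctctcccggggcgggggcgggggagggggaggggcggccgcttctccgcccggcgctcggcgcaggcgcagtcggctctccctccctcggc
The Sec24d sequence held 1 match, in its first 6 bases, and the Rab22a sequence held 1 across the transcript start. The sequences of Tbc1d9, Vps16, Rab32 and Rab3ip held none of these letters. The promoters differed in base composition. Sec24d had a GC content of 72.0% and a ratio of observed to expected CpG of 1.01, against 45.0% and 0.33 for Tbc1d9 and 57.3% and 0.41 for Rab32. Of the 135 genes, 103 had a RefSeq promoter sequence whose transcript start lay within 100 bp of their window's start position. In these, the letters were present in 17 (16.5%), against 15.9% of 7792 windows with such a sequence. They were in 2 of 16 promoters of members called higher, in 3 of 15 called lower and in 12 of 72 not called. Over all windows they were in 209 of 1508 called higher, 156 of 822 called lower and 875 of 5462 not called, and in 20.2% of all 32851 RefSeq promoters of this length. A match of letters is a description and not a binding site.

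Across the 4 families 38 of 135 promoters were called, or 28.1%, against 29.9% of all 10271 windows. Of these 38, 23 were higher in Snai1 (17.0% of members, against 19.6% of all windows) and 15 were lower (11.1%, against 10.3%). Most changes were small: 32 of the 38 called members changed by less than 0.5 log2 units, and 2 of all 135, Sec24d (3.59) and Tbc1d9 (1.01), by at least 1. The median change of the members was 0.06, with an interquartile range from -0.085 to 0.150, against a median of 0.08 and a range from -0.05 to 0.18 over all windows. Median levels were 10.91 in Snai1 and 10.88 in EV for the members, and 10.84 in Snai1 and 10.78 in EV for all windows. Subtracting the median of all windows and testing again with the implied SE called 7 members higher and 20 lower, so that the share of higher calls was 25.9% in place of 60.5%. The same step over all windows called 21.0%, with 7.23% higher and 13.8% lower. Directions of changes near the median of 0.08 therefore hold only on the authors' scale.

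The share of promoters called lay between 23.1% (Tbc1d) and 31.5% (Rab) in the 4 families, against 29.9% of all windows. Among the Rab genes 9 were higher and 8 lower of 54, with a median change of 0.02. Tbc1d genes were split evenly, 3 higher and 3 lower of 26, with a median of 0.07. Of 32 Vps genes, 5 were higher and 3 lower (median 0.07), and of 23 Sec genes, 6 were higher and 1 lower (median 0.09). The Rab changes were spread most widely, with an interquartile range of 0.365, against 0.295 for Sec, 0.227 for Tbc1d, 0.168 for Vps and 0.23 for all windows. These differences between families were not tested.

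**Figure D1:**
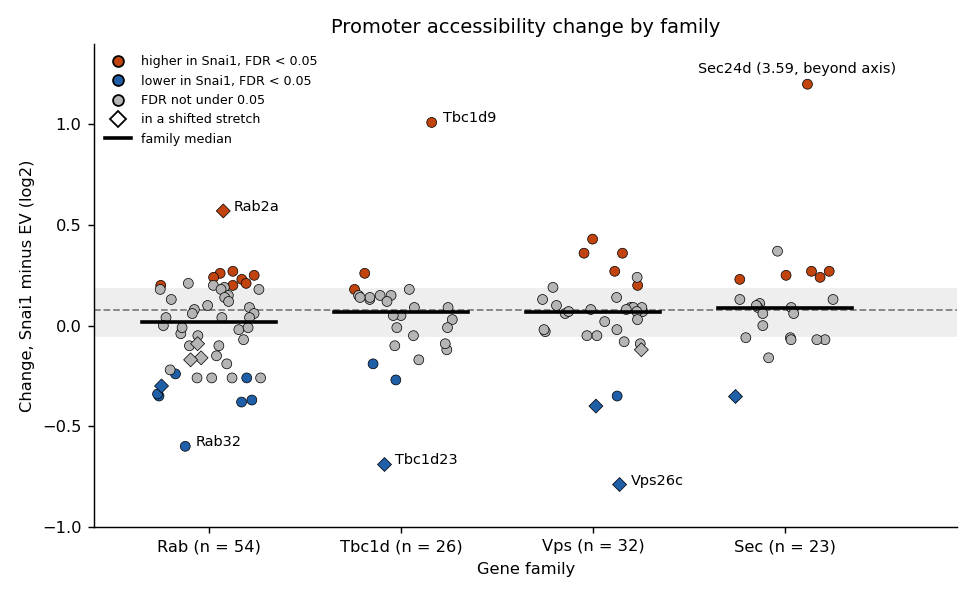
Change in promoter accessibility (Snai1 minus EV, log2) of each gene, by family. Points are genes, coloured by the authors' FDR call, and diamonds lie in shifted stretches of chromosome. Black bars are family medians, and the grey band and dashed line are the interquartile range and median (0.08) of all windows. Sec24d, at 3.59, is beyond the axis and drawn near its upper end.

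Some chromosome stretches of many neighbouring promoters were shifted together, which bears on the members that lie in them. Stretches were found by dividing each chromosome into runs of like change, and 9 stretches of at least 15 windows, with 865 windows in all, had a median at least 0.2 from that of all windows. Inside them 74.6% of windows were called, 13.3% higher and 61.3% lower, against 25.8% outside, 20.2% higher and 5.63% lower. They held 10 of the 135 members, of which 1 was called higher, 5 lower and 4 not called. Outside them 22 of 125 members were called higher and 10 lower, with a median change of 0.07, against 0.09 for all windows outside. Subtracting each stretch's own median and testing again called 4 members higher and 13 lower. That step called 13.0% of all windows, 4.58% higher and 8.38% lower. The 4 members called higher on this scale were Sec24d, Tbc1d9, Vps16 and Vps53.

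The largest change in the 4 families was at Sec24d, which encodes one of the COPII subunits that select cargo at the ER. In the authors' deposited table its level was 8.30 in Snai1 and 4.70 in EV (change 3.59, implied SE 0.22, FDR 3.15e-56), a 12.0-fold difference. In EV this was among the least open promoters of the table: 0.152% of windows of its width were at or below its level. In Snai1 the share was 7.77%, so the promoter was still at the low end. It was the 7th largest increase of the 10271 windows. The window (mm10, chr3:123266496-123268496) has its start position 1000 bp in. That position lies 2695 bp inside the gene's outer boundary but exactly at a RefSeq transcript start of Sec24d. The nearest windows on either side did not show a change of this size: Mettl14, 118.5 kb away, was at 10.55 in Snai1 and 10.22 in EV (change 0.33, FDR 0.00181), and Usp53, 283.0 kb away, was at 11.08 in Snai1 and 11.24 in EV (change -0.17, FDR 0.166). The other cargo-binding paralogs changed far less. Sec24b rose by 0.24 (9.90 in Snai1 and 9.66 in EV, FDR 0.0366), while Sec24a had a change of 0.10 (8.59 in Snai1 and 8.49 in EV, FDR 0.54) and Sec24c one of 0.06 (11.47 in Snai1 and 11.40 in EV, FDR 0.553).

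The remaining COPII genes showed 1 further call. In the authors' deposited table Sec23b, the partner of Sec24 in the inner coat, rose by 0.25 (11.28 in Snai1 and 11.03 in EV, implied SE 0.07, FDR 0.00154). Its paralog Sec23a had a change of -0.07 (11.87 in Snai1 and 11.94 in EV, FDR 0.612). The outer coat genes Sec13 (-0.07) and Sec31a (0.06), the ER exit site scaffold gene Sec16a (-0.07, FDR 0.496) and Sec23ip (0.11) were not called. The COPII group thus had 3 of 10 genes higher and 0 lower, and the 8 translocon and signal peptidase genes 2 higher and 0 lower, near the 19.6% of all windows called higher. With stretch medians subtracted 1 COPII gene, Sec24d, and 0 translocon genes were higher. Sec61a1, which encodes the channel of the translocon, rose by 0.27 (11.45 in Snai1 and 11.19 in EV, implied SE 0.07, FDR 0.00116). Sec62, which acts beside the channel in post-translational import, rose by 0.27 (10.80 in Snai1 and 10.53 in EV, implied SE 0.08, FDR 0.00302). Sec61a2 (0.00), Sec61b (-0.06, FDR 0.542), Sec61g (0.13), Sec63 (-0.06), and the signal peptidase genes Sec11a (0.13) and Sec11c (0.09, FDR 0.369) were not called.

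On the authors' scale the Sec22 genes went in different directions. By the authors' deposited table Sec22c rose by 0.23 (11.50 in Snai1 and 11.26 in EV, FDR 0.00418), and Sec22a fell by 0.35 (10.93 in Snai1 and 11.28 in EV, FDR 2.29e-04). Sec22c lost its call with the median of all windows subtracted (0.15) and with its stretch median subtracted (0.12). Sec22a lies in a shifted stretch of chromosome 16 whose median was -0.33, and with that subtracted its change was -0.02. Sec22b, the SNARE that acts between the ER and Golgi, had a change of -0.16 (9.45 in Snai1 and 9.61 in EV, FDR 0.234). With stretch medians subtracted, Sec22b was the only Sec22 gene called, and it was lower (-0.29). Of the lipid transfer genes named after yeast Sec14, Sec14l2 had a change of 0.37 (10.90 in Snai1 and 10.54 in EV) that was not called (FDR 0.253), with an implied SE of 0.25, and Sec14l1 one of 0.09.

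On the authors' scale, subunits of the same Vps complex did not all change in the same direction. With stretch medians subtracted, no Vps complex held calls in both directions. The HOPS and CORVET tethers share a core and prepare late and early endosomes for fusion. In the authors' deposited table the core gene Vps16 rose by 0.43 (11.47 in Snai1 and 11.04 in EV, implied SE 0.07, FDR 1.89e-07). Its window (chr2:130423320-130425320) shared 780 bp with that of Pced1a on the opposite strand, which rose by 0.47 (FDR 2.58e-08), so reads in the shared part cannot be assigned to either gene. Vps41, a subunit of HOPS, rose by 0.36 (10.00 in Snai1 and 9.64 in EV, implied SE 0.09, FDR 3.99e-04). With stretch medians subtracted, Vps16 kept its call (0.30) and Vps41 did not (0.22). The nearest windows that share no DNA with that of Vps16 also rose. Ptpra, 26.0 kb away, rose by 0.25 (FDR 0.00899) and Idh3b, 139.9 kb away, by 0.34 (FDR 0.00197). The stretch of Vps16 held 661 windows, and a shorter one around it was not tested. Vps8, of CORVET, fell by 0.40 (11.45 in Snai1 and 11.85 in EV, FDR 4.87e-06) in a shifted stretch of chromosome 16 with a median of -0.33, which leaves -0.07. The core genes Vps18 (-0.03) and Vps33a (-0.08), the HOPS gene Vps39 (0.09) and Vps33b (0.19, FDR 0.0986), a paralog of Vps33a, were not called.

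Retromer returns receptors from endosomes to the Golgi and cell surface, and retriever is a related complex. The retromer gene Vps26a fell by 0.35 (chr10:62486498-62487598; 10.96 in Snai1 and 11.31 in EV, implied SE 0.09, FDR 0.00157). It lies outside the shifted stretches, and the nearest window, Srgn, 21.2 kb away, was higher in Snai1 (10.29 in Snai1 and 9.82 in EV, FDR 3.05e-05). Vps35, the scaffold of retromer, rose by 0.20 (11.44 in Snai1 and 11.24 in EV, implied SE 0.07, FDR 0.015), with a window that shared the full length of the shorter one with that of the replication gene Orc6 (change 0.22). The call of Vps35 was lost with the median of all windows subtracted (0.12) and with its stretch median subtracted (0.07). Vps26b, the paralog of Vps26a, had a change of 0.07 (FDR 0.428) and Vps29 one of -0.09. The retriever gene Vps26c had the largest decrease of the 4 families, -0.79 (12.18 in Snai1 and 12.96 in EV, implied SE 0.09, FDR 6.52e-17). It lies in a shifted stretch of chromosome 16 (median -0.69), where its neighbours Ttc3 (-0.76) and Dyrk1a (-0.67) were similarly lower, and set against that median its change was -0.10. The other retriever gene, Vps35l, had a change of -0.02 (FDR 0.896).

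The ESCRT proteins bud vesicles into the lumen of endosomes, and the ATPases of Vps4a and Vps4b recycle ESCRT. ESCRT genes with other names are counted among the partners below, where some were called higher and some lower by the authors' FDR. The 8 genes of this group named Vps gave 0 calls by the authors' FDR, where 29.9% of all windows were called. They also gave 0 with an unadjusted p under 0.05, for which the share of all windows was not counted. Vps4b lies in the shifted part of chromosome 1 (stretch median -0.24) and was called lower with the median of all windows subtracted (-0.20). Their changes lay between -0.12 (Vps4b) and 0.24 (Vps25, FDR 0.133), and the open promoters Vps37a (11.75 in Snai1 and 11.68 in EV), Vps37c (11.70 in Snai1 and 11.75 in EV) and Vps4a (11.54 in Snai1 and 11.51 in EV) changed by 0.07 or less in size. Vps53, a subunit that the Golgi tether GARP shares with its endosomal relative EARP, rose by 0.36 (10.36 in Snai1 and 10.00 in EV, implied SE 0.09, FDR 2.69e-04). The 4 other genes of these tethers, Vps50, Vps51, Vps52 and Vps54, had changes between 0.06 and 0.10 and were not called. Of the VPS13 genes, which move lipids between membranes, Vps13b rose by 0.27 (10.68 in Snai1 and 10.42 in EV, FDR 0.00257), while Vps13a (0.14, FDR 0.124) and Vps13c (-0.02, FDR 0.858) were not called. The call of Vps13b was lost with the median of all windows subtracted (0.19) and with its stretch median subtracted (0.16). Vps45, the endosomal SNARE regulator, Vps9d1 and Vps72, which despite its name encodes a subunit of a chromatin remodelling complex, had changes of 0.13, 0.08 and 0.09.

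**Figure D2:**
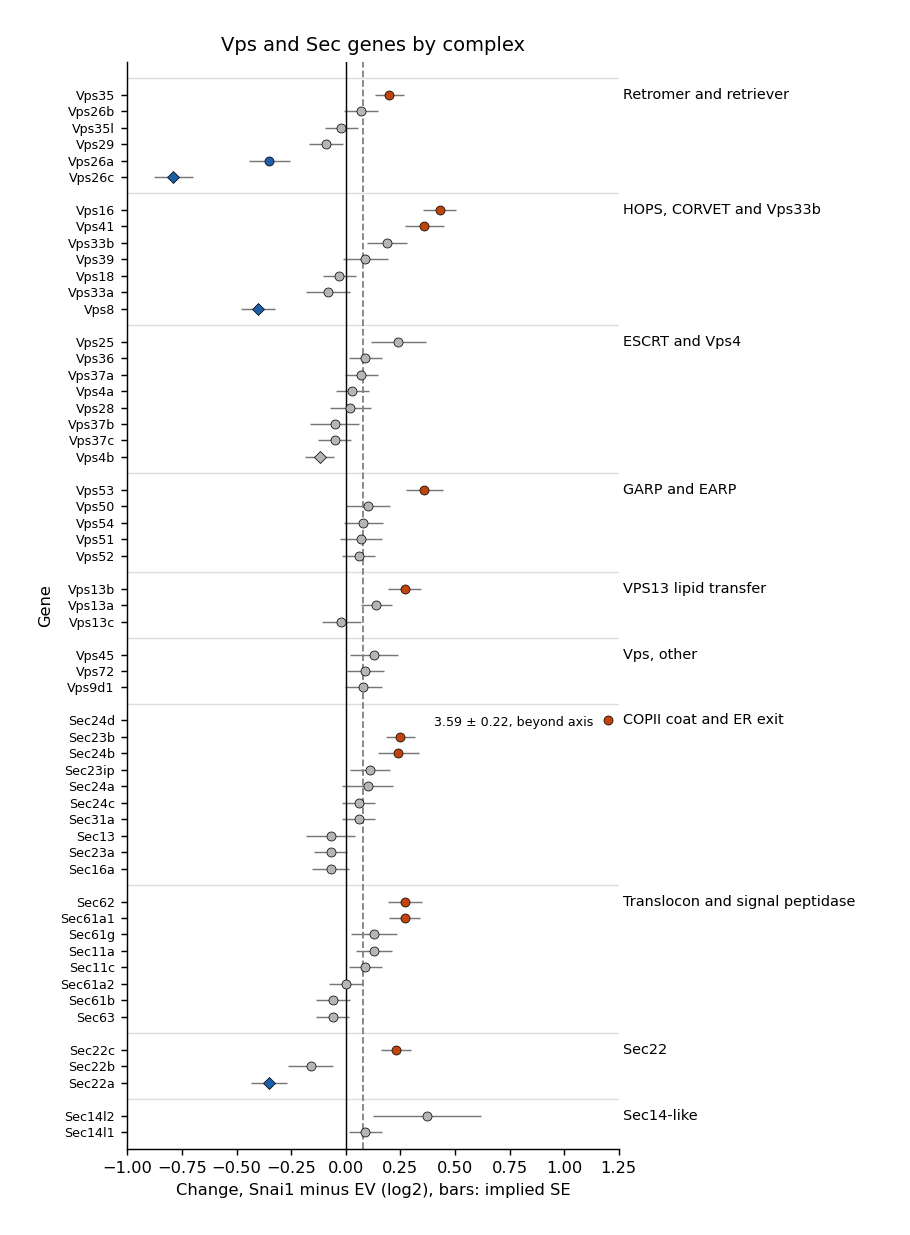
Change (Snai1 minus EV, log2) of the Vps and Sec genes, grouped by complex. Bars are the implied SE, red and blue points are called higher and lower, grey points are not called, and diamonds lie in shifted stretches; Sec24d (3.59) is beyond the axis. Vps16, Vps41 and Vps53 stand to the right of the dashed median of all windows (0.08), and Vps26c, Vps8, Sec22a and Vps26a to the left.

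The Rab GTPases, 44 of the 54 Rab genes, had 6 called higher and 4 lower, with a median change of 0.02. These were 13.6% and 9.1% of them, against 19.6% and 10.3% of all windows. Rab32 and Rab38, which supply melanosomes and other lysosome-related organelles with enzymes, changed in opposite directions on the authors' scale. Rab32 (chr10:10558107-10559207) fell by 0.60 (9.59 in Snai1 and 10.19 in EV, implied SE 0.10, FDR 1.08e-07), a 1.52-fold difference, whereas Rab38 rose by 0.27 (10.73 in Snai1 and 10.46 in EV, implied SE 0.08, FDR 0.00735). Rab32 lies outside the shifted stretches. The windows nearest to it, Shprh at 591.2 kb and Stxbp5 at 657.2 kb, had changes of 0.03 and 0.30. Rab38 was not called with the median of all windows subtracted (0.19) or with its stretch median subtracted (0.14). The windows nearest to Rab38, Ctsc at 152.2 kb and Tmem135 at 908.5 kb, had changes of 0.51 and 0.08. Rab29, a relative of Rab32 and Rab38, had a change of -0.16 (11.52 in Snai1 and 11.68 in EV, FDR 0.0554) in the shifted part of chromosome 1 (stretch median -0.24). The late endosome genes Rab7 (0.18, FDR 0.0848) and Rab9 (-0.22, FDR 0.0748) were not called. Rab7b, at 6.14 in Snai1 and 6.31 in EV, was the least open promoter of the Rab genes and was not called either.

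Early endosome Rabs, which govern uptake and sorting, gave 1 call among 7, where 29.9% of all windows were called. Rab22a fell by 0.38 (chr2:173658845-173660845; 12.33 in Snai1 and 12.71 in EV, implied SE 0.10, FDR 0.00175). Its window contained that of the pseudogene Ppp4r1l-ps on the opposite strand, which fell by 0.43 (FDR 4.82e-04). The 3 Rab5 genes, the central regulators of this compartment, were all open and not called: Rab5a at 12.72 in Snai1 and 12.64 in EV, Rab5b at 12.18 in Snai1 and 12.03 in EV, and Rab5c at 11.67 in Snai1 and 11.49 in EV (FDR 0.0557). Rab21 (0.21, FDR 0.0527), Rab31 (0.14) and Rab20 (-0.26, FDR 0.171) were likewise not called.

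Recycling Rabs return membrane to the cell surface. Rab11a, a main regulator of the recycling endosome, rose by 0.24 (10.53 in Snai1 and 10.29 in EV, implied SE 0.08, FDR 0.00818), and its paralog Rab11b rose by 0.25 (12.43 in Snai1 and 12.18 in EV, implied SE 0.08, FDR 0.00854). The pair differed in level in both groups but had nearly the same change. Rab11a and Rab11b both lost their calls with the median of all windows subtracted (0.16 and 0.17) and with stretch medians subtracted (0.13 and 0.15). Rab35, of a faster recycling route, fell by 0.26 (10.04 in Snai1 and 10.30 in EV, implied SE 0.10, FDR 0.0438), as did 1110006O24Rik (-0.27), with which it shared the DNA of one whole window. Its call was lost with the stretch median subtracted (-0.24). Its stretch, 362 windows of chromosome 5 with a median of -0.02, was not counted as shifted, and a shorter stretch around it was not tested. Rab4a (-0.10), Rab4b (0.04), Rab14 (-0.02), Rab15 (-0.10) and Rab17 (-0.07) were not called.

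ER and Golgi Rabs, which include the pair Rab1a and Rab1b that drives transport between these organelles, gave 1 call among 8. Over all windows 29.9% were called. Rab2a rose by 0.57 (11.07 in Snai1 and 10.50 in EV, implied SE 0.08, FDR 2.72e-12). It lies in the shifted start of chromosome 4, with a stretch median of 0.53, and set against that its change was 0.05; its neighbour Chd7, 154.8 kb away, rose by 0.63. Rab2b, on another chromosome, had a change of 0.10 (FDR 0.456). Rab1a stood at 12.53 in both groups, and Rab1b (0.04), Rab6a (0.06), Rab18 (0.13), Rab33b (0.04) and Rab43 (-0.04) were not called.

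Secretory Rabs gave 3 calls among 9, near the 29.9% of all windows called. Rab27a, which docks secretory and lytic granules at the plasma membrane, rose by 0.21 (11.43 in Snai1 and 11.23 in EV, implied SE 0.07, FDR 0.0214), and its paralog Rab27b, a weakly open promoter, had a change of 0.18 (8.99 in Snai1 and 8.80 in EV, FDR 0.179). Rab3a, known for synaptic vesicle release, rose by 0.23 (11.33 in Snai1 and 11.10 in EV, implied SE 0.07, FDR 0.00921). Rab3d, of granules in mast and gland cells, fell by 0.24 (11.07 in Snai1 and 11.31 in EV, implied SE 0.09, FDR 0.0393). Rab27a and Rab3a lost their calls with either the median of all windows or the stretch median subtracted, and Rab3d kept its call. Rab8a (12.72 in Snai1 and 12.52 in EV, FDR 0.0519), Rab8b (-0.01), Rab10 (-0.15), Rab13 (-0.01) and Rab44 (-0.26) were not called. The 6 remaining GTPases gave 0 calls by the authors' FDR: Rab24 (0.19, FDR 0.0847), Rab28 (-0.19, FDR 0.0783), Rab36 (-0.26, FDR 0.107), Rab34 (-0.26), Rab12 (-0.05) and Rab40c, the most open member of the 4 families (13.39 in Snai1 and 13.26 in EV, FDR 0.304). Of these, Rab24, Rab28 and Rab36 had an unadjusted p under 0.05.

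**Figure D3:**
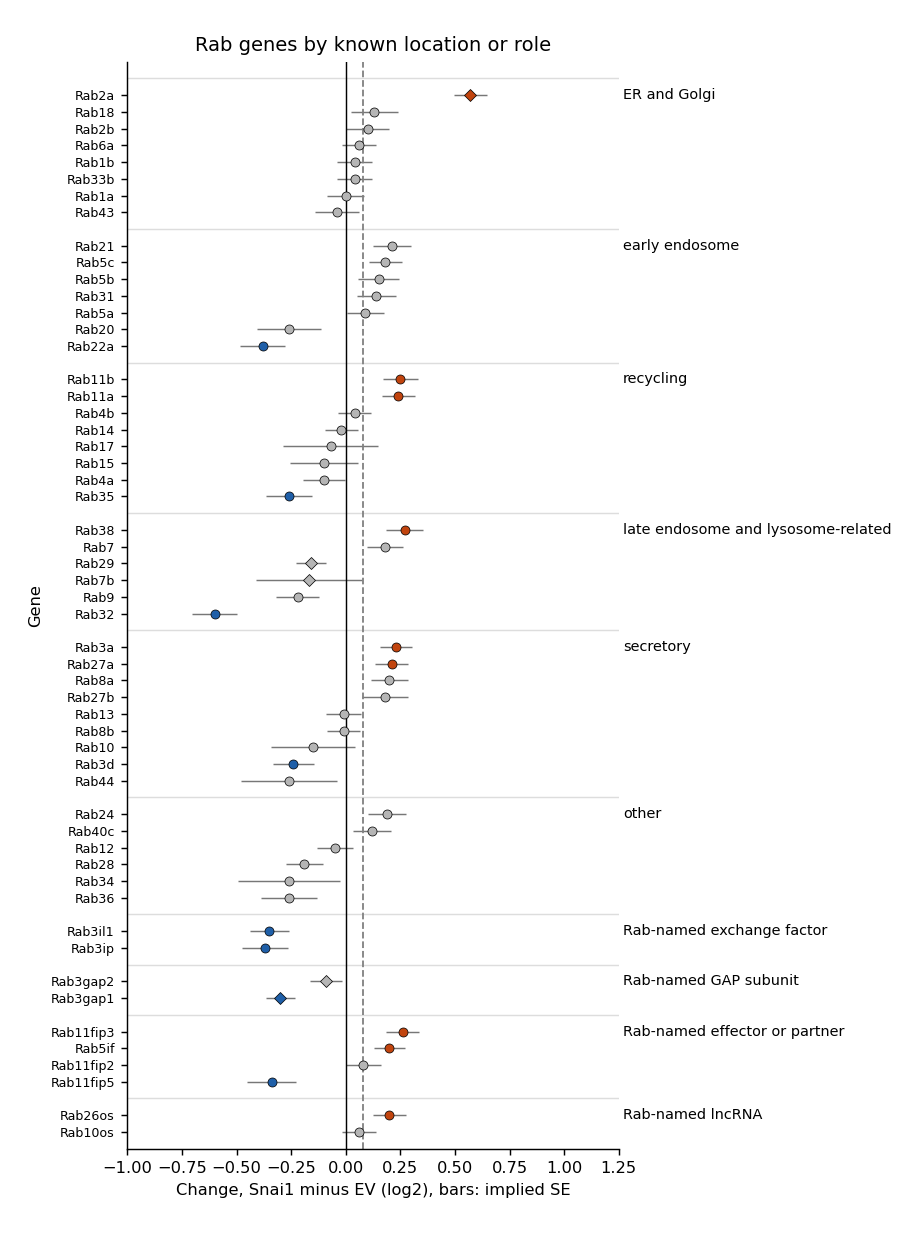
Change (Snai1 minus EV, log2) of the Rab genes, grouped by known location or role. Bars are the implied SE, red and blue points are called higher and lower, and diamonds lie in shifted stretches. Rab32 (-0.60) and Rab38 (0.27) lie at opposite ends of their group, Rab11a (0.24) and Rab11b (0.25) together at the top of theirs. With either the median of all windows or the stretch median subtracted, Rab38, Rab11a and Rab11b were not called.

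Of the 10 Rab-named genes that are not GTPases, 3 were higher and 4 lower, where 19.6% of all windows were higher and 10.3% lower. With stretch medians subtracted 0 were higher and 3 lower. The difference from the GTPases was not tested. Both exchange factor genes were lower: Rab3ip, the gene of Rabin8, which switches on Rab8, fell by 0.37 (chr10:116950280-116951380; 10.33 in Snai1 and 10.70 in EV, implied SE 0.10, FDR 0.00276), and its paralog Rab3il1 fell by 0.35 (10.01 in Snai1 and 10.36 in EV, implied SE 0.09, FDR 0.00103). The Rab3ip window lay within that of 4933412E12Rik on the opposite strand, which fell by 0.34. The start position of the Rab3il1 window lies 16559 bp inside the gene, 23 bp from a RefSeq transcript start. The genes lie on chromosomes 10 and 19, outside the shifted stretches. Rab3gap1, the catalytic subunit of a complex that switches off Rab3, fell by 0.30 (11.79 in Snai1 and 12.09 in EV, FDR 6.95e-05) in the shifted part of chromosome 1, which leaves -0.06. Its partner Rab3gap2, in the same stretch, had a change of -0.09 (FDR 0.326). Among the Rab11 effector genes, Rab11fip3 rose by 0.26 (11.33 in Snai1 and 11.07 in EV, FDR 0.00391), Rab11fip5 fell by 0.34 (9.84 in Snai1 and 10.19 in EV, FDR 0.0113) and Rab11fip2 had a change of 0.08. Rab5if rose by 0.20 (FDR 0.0224), with a window that contained that of 5430405H02Rik (change 0.18). The window of the non-coding gene Rab26os rose by 0.20 (12.63 in Snai1 and 12.43 in EV, FDR 0.0273) and contained that of Traf7 (change 0.21); that of Rab10os had a change of 0.06.

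The Tbc1d genes gave 6 calls among 26, where 29.9% of all windows were called. Tbc1d9 (chr8:83164352-83166352), a TBC domain gene, rose by 1.01 (9.53 in Snai1 and 8.53 in EV, FDR 0.00701), a 2.01-fold difference with a wide implied SE of 0.31. Its paralog Tbc1d9b had a change of 0.05 (11.84 in Snai1 and 11.78 in EV, FDR 0.66). Tbc1d15, which acts on Rab7, rose by 0.26 (10.63 in Snai1 and 10.37 in EV, FDR 0.00438), and Tbc1d31, a gene of the centrosome and cilium, by 0.18 (11.43 in Snai1 and 11.25 in EV, FDR 0.0392). Tbc1d15 and Tbc1d31 lost their calls with the median of all windows subtracted (0.18 and 0.10) and with stretch medians subtracted (0.16 and 0.07). Tbc1d8 fell by 0.27 (10.30 in Snai1 and 10.57 in EV, implied SE 0.08, FDR 0.00645) and Tbc1d2, another regulator of Rab7, by 0.19 (10.76 in Snai1 and 10.95 in EV, FDR 0.0343), while their paralogs Tbc1d8b (0.13, FDR 0.129) and Tbc1d2b (-0.01, FDR 0.944) were not called. The call of Tbc1d2 was lost with its stretch median subtracted (-0.15). Tbc1d23, an adaptor that links endosome-derived vesicles to the Golgi, fell by 0.69 (11.45 in Snai1 and 12.14 in EV, implied SE 0.10, FDR 4.33e-10). It lies in a shifted stretch of chromosome 16 (median -0.39) and was still 0.30 below that median, the only member of the 10 in shifted stretches called on the stretch-centred scale. The 20 genes not called included the open promoters Tbc1d17 (12.41 in Snai1 and 12.32 in EV), Tbc1d10b (12.42 in Snai1 and 12.27 in EV) and the ER regulator Tbc1d20 (0.15, FDR 0.0838), and Tbc1d1 and Tbc1d4, of glucose transporter traffic, at -0.10 and 0.15.

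**Figure D4:**
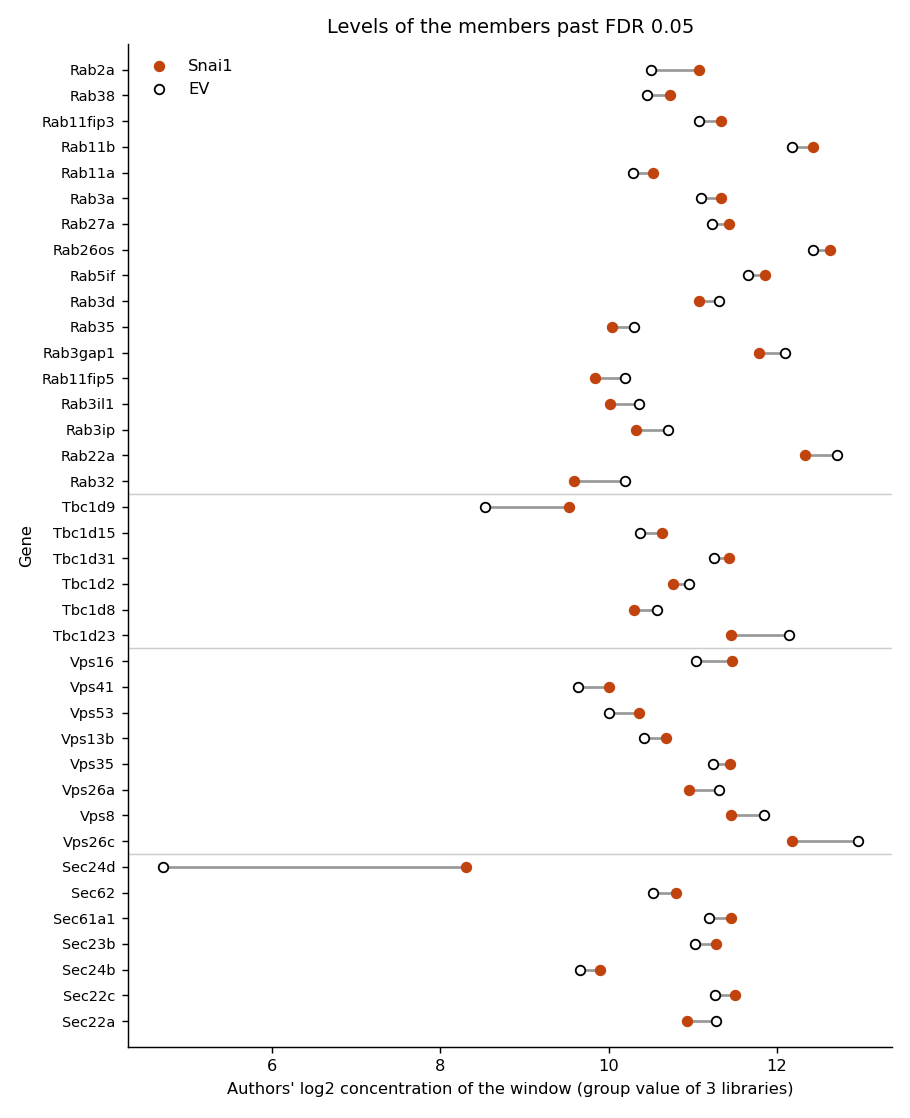
The authors' log2 concentration in Snai1 (filled) and EV (open) for the 38 called genes, ordered by change within the Rab, Tbc1d, Vps and Sec families from top to bottom. Sec24d has the longest line, with 8.30 in Snai1 and 4.70 in EV, and most other pairs lie within 0.5 of each other.

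All 4 members on chromosome 16 were called lower (Sec22a, Vps8, Tbc1d23 and Vps26c), and so was Rab3gap1 on the shifted part of chromosome 1. These members all lie in shifted stretches, inside which 61.3% of all windows were called lower. With stretch medians subtracted, 13 of the 135 members were called lower, where 8.38% of all windows were. Of these 13, 9 were among the 54 Rab genes, a difference between families that was not tested. They were Rab32, Rab22a, Rab3ip, Rab3il1, Rab11fip5, Rab3d, Rab9, Rab28 and Rab36. The last 3 were not called by the authors' FDR. The other 4 were Vps26a, Tbc1d8, Tbc1d23 and Sec22b, of which Sec22b was not called by the authors' FDR. What shifted these stretches was not tested.

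**Figure D5:**
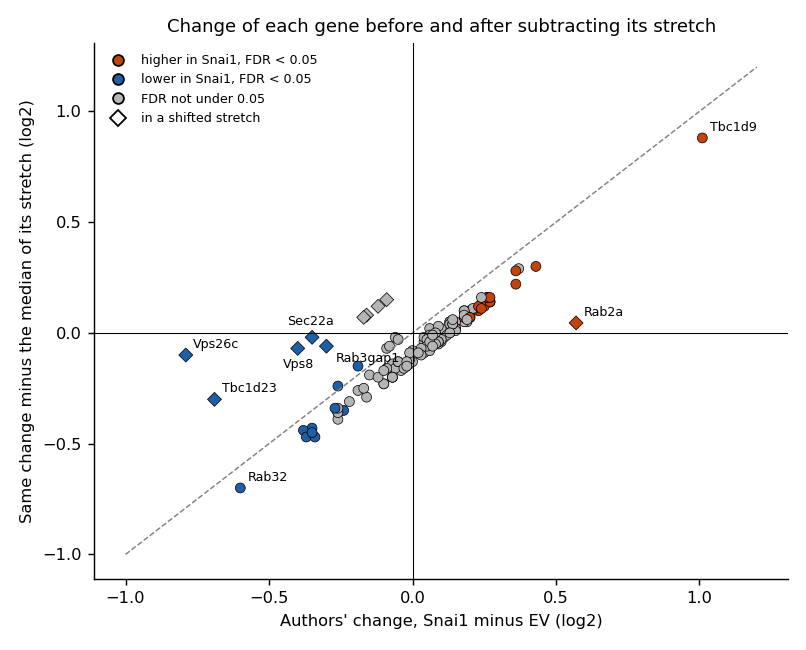
The authors' change of each gene (horizontal axis, log2) against the same change minus the median of its stretch of chromosome (vertical axis, log2), without Sec24d. The dashed line marks equal values. Red and blue points are called higher and lower in Snai1, and diamonds lie in shifted stretches. Vps26c (-0.79 and -0.10) and Rab2a (0.57 and 0.05) lie near 0 on the vertical axis, and Rab32 and Tbc1d9 far from it.

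Window position and shared DNA bear on some members. Of the 135 windows, 125 had their start position within 1000 bp of the gene's 5′ boundary and 10 had it further inside the gene. Of these 10, 9 had it within 23 bp of a RefSeq transcript start, and no transcript start was available for Rab44. In 20 members the window overlapped that of another gene on the opposite strand, and 8 of these 20 were called, where 29.9% of all windows were called. In 7 of the 8 the other window was called in the same direction, and for Rab11b the other, Gm17251, was not called (0.19, FDR 0.0711). Overlapping windows share reads, so a like call in the other window is not separate evidence. Of the 12 members with a mean log2 concentration under 9, Sec24d was called and 11 were not; over all windows 376 of 1142 under this level were called.

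Genes that work with the 4 families were counted from 9 lists, to be read against the 19.6% of all windows called higher and the 10.3% called lower. With stretch medians subtracted, fewer genes were called higher in each list but that of Rab effectors. Of 46 Rab activator and carrier genes with a window, 11 were higher and 5 lower (median change 0.065), and 2 higher and 5 lower with stretch medians subtracted. Dennd5b, a DENN domain exchange factor gene, fell by 2.50 (6.40 in Snai1 and 8.90 in EV, implied SE 0.17, FDR 7.00e-45), Rin2, an exchange factor of Rab5, fell by 0.93 at a window inside the gene (7.44 in Snai1 and 8.37 in EV, FDR 1.43e-06), and the tether gene Trappc2 rose by 0.27 (FDR 8.19e-04). Rab effectors had 2 higher and 2 lower of 25 on both scales, with Mical1 (0.39, FDR 1.10e-06), Golga5 (-0.43, in a shifted stretch of chromosome 12) and Micall2 (-0.84, FDR 1.08e-04) first by FDR. Of 7 TBC domain genes not named Tbc1d, 1 was higher, Tbck (0.19), and 0 with stretch medians subtracted. ESCRT, retromer and sorting nexin partners had 8 higher and 3 lower of 50, and 0 higher and 1 lower with stretch medians subtracted, among them Ccdc93 (-0.24, at its stretch median), Vipas39 (0.21), a partner of Vps33b, and Chmp5 (-0.25). COPII and ER exit partners had 1 higher and 2 lower of 21, and 0 of either with stretch medians subtracted. The 3 were Ergic2 (0.23), Mia3 (-0.43) and Tfg (-0.45), with both decreases in shifted stretches. Translocon and signal peptidase partners had 4 higher and 1 lower of 27, and 0 of either with stretch medians subtracted, among them Srp9 (-0.42, in a shifted stretch), Hspa5 (0.18), the ER chaperone BiP, and Hsp90b1 (0.23). The COPI coat had 1 higher and 1 lower of 12, Copb2 (0.26) and Copa (-0.23, in a shifted stretch), and 0 higher and 2 lower with stretch medians subtracted. Exocyst, COG and related tethers had 8 higher and 1 lower of 20, with a median of 0.175, and 0 higher and 1 lower with stretch medians subtracted. First by FDR were Cog5 (0.27), Exoc3 (0.29) and Cog6 (0.34). SNARE genes had 7 higher and 2 lower of 37, and 1 higher and 1 lower with stretch medians subtracted, among them Vamp4 (-0.42, in a shifted stretch), Snap23 (0.34) and Stx7 (0.34).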

How the data were processed

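Per the submitters' processing notes, the authors used fastp, Bowtie2, Picard and DiffBind with mm10; their versions, and the counting, scaling and any Tn5 shift, were not given in the sources used here. Per the file headers, the deposited table gave log2 concentrations for EV, Snai1 and both, a log2 fold (EV minus Snai1, sign turned here), a p-value and an FDR. The authors' FDR matched a Benjamini-Hochberg adjustment of the p-value within 0.00134. Of 10274 rows, 3 repeats were dropped. Columns of values per sample numbered 0, so no test across libraries was run.

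Windows of 2001 bp were read as plus strand, with the start position 1000 bp in, and those of 1101 bp as minus strand, with it 100 bp in. Each was given the RefSeq (GRCm38.p6) gene with the nearest 5′ boundary within 1000 bp on that strand, otherwise the single gene spanning it. Strand came from the RefSeq promoter table; for genes not in it, strand was taken from the window alone. This gave 8955 windows at 5′ boundaries, 1275 inside genes and 41 with none. With several windows, the one with the highest mean concentration was used.

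The implied SE is the change over the normal deviate of p; changes under 0.1 and p of 0 or 1 took the median of 20 level bins. Stretches were an optimal partition (windows at 9 or more, at least 15 per stretch except on chromosome Y, whose 3 windows formed 1 stretch that was not counted as shifted, changes limited to 0.75 from the median, penalty of 4 noise variances multiplied by the natural log of the count of all such windows, over every chromosome). These steps were run on simulated data whose noise was normal, with the implied SE, and independent between windows. The gene changes planted there were larger than those of most called members, so the run does not cover changes of that smaller size. Members, lists and methods were chosen with earlier results of these data known. Named genes are all called members, those with FDR between 0.05 and 0.10, paralogs of called members, the most open members not called in each family, and the first 3 called of each partner list by FDR. Other members outside this rule were named after their values were seen, to show each group whole. Python 3.11.15, pandas 2.3.3 and scipy 1.17.1 were used.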

Additional observations from a re-analysis of the deposited data

How the results depend on the processing

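No paired analysis was possible because the table holds 1 value per group, and no replicate could be left out for the same reason. Counts given here are over the 4 families, then Rab, Tbc1d, Vps and Sec. With the median of all windows subtracted, higher calls became 7 over all, 1 Rab, 1 Tbc1d, 3 Vps and 2 Sec, in place of 23, 9, 3, 5 and 6, and the Sec median became 0.01. With stretch medians subtracted, higher calls became 4 over all, 0 Rab, 1 Tbc1d, 2 Vps and 1 Sec, lower Vps calls became 1, and medians became -0.03 over all, -0.04 for Tbc1d, -0.04 for Vps and 0.00 for Sec. At an FDR of 0.01, lower Rab calls became 5. With the longer, plus-strand windows alone, which drops 70 members, 14 were higher over all, 3 Vps and 3 Sec, and 5 were lower over all, 4 Rab, 0 Tbc1d, 1 Vps and 0 Sec. With Rab restricted to GTPases, lower Rab calls became 4. Outside the shifted stretches, an alternative chosen after seeing the data, lower calls became 1 Vps and 0 Sec. Other counts were within 1.5 times, and other medians within their family's median implied SE, under these settings and with the smallest p, 5′ windows or levels of at least 9. Of the 38 called members, 28 kept their call at an FDR of 0.01, 22 with the overall median and 13 with stretch medians subtracted, and none reversed.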
